A study of Mus musculus with 12 samples.

Results

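Wnt proteins are secreted, lipid-carrying ligands that bind Frizzled receptors together with a co-receptor, either Lrp5 or Lrp6 for the branch that stabilises beta-catenin, or receptors such as Ror2 for branches that act on cell movement and shape. Their reach is set outside the cell by secreted inhibitors. Secreted Frizzled-related proteins (Sfrp) and Wnt inhibitory factor (Wif1) hold the ligands themselves, whereas Dickkopf proteins such as Dkk2 occupy the co-receptor. In injured skin, muscle and other connective tissues, Wnt signalling is known to act on fibroblasts, satellite cells and matrix deposition.

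Transcripts of 10 genes of this system were followed in mouse paraspinal tissue, namely the 4 ligand genes *Wnt2*, *Wnt5a*, *Wnt5b* and *Wnt9a* and the 6 inhibitor genes *Sfrp1*, *Sfrp2*, *Sfrp4*, *Dkk2*, *Dkk3* and *Wif1*. They were chosen by name from the 18996 genes of the count table, and all 10 passed the filter on low counts that left 14765 genes for testing. The samples came from 12 mice, 4 in each of 3 groups. The labels give no genotype, strain or age, and the methods name BALB/c animals of 5 to 7 weeks and of both sexes. No operation mice gave paraspinal soft tissue without surgery. In SHAM mice, soft tissue beside the spine was removed and the lamina, the bony roof of the vertebral canal, was left in place, and in Laminectomy mice laminae and spinous processes at the thoracolumbar junction were taken out as well. The tissue of both surgical groups, collected 7 days after the operation, was titled as scar tissue. The starting tissue and the surgery therefore differ between them and the No operation group at the same time. The methods name fewer mice per group than the labels do, and all labelled mice were used.

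Totals of 16802989 to 18077868 counts per mouse fell on genes. The composition of the tissue differed strongly between the groups. The summed level of 10 skeletal muscle fibre genes lay between 100088 and 142277 CPM (counts relative to the library size, scaled by the TMM method) in No operation mice, 2403 and 9583 in SHAM mice and 3160 and 13825 in Laminectomy mice. A few libraries stood apart. The SHAM mouse with replicate number 1 was at 0.787 CPM of *Myod1* and 0.112 CPM of *Mymk*, genes of muscle precursor cells, against at least 23.2 and 38.4 CPM in the other SHAM mice. The No operation mice 2 and 3 were at 224 and 74.0 CPM of the bone gene *Ibsp*, against 0.482 and 1.05 CPM in mice 1 and 4, and the Laminectomy mice 2 and 3 held 203 and 72.8 CPM of 5 neuron and glia genes, against at most 2.33 CPM in any other mouse. Where a call was lost without both of these No operation libraries or both of these Laminectomy libraries, the value without them is given beside it. In whole tissue, fewer cells of a type and less RNA per cell cannot be told apart.

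The 3 inhibitor genes around which the results turn, *Sfrp2*, *Dkk2* and *Wif1*, are shown here by the bases before their transcription start, since each moved in a different way after surgery. Starts were those of RefSeq on GRCm38.p6, and a promoter was found there for 6 of the 10 genes. The windows lie at chr3:83766071-83766320 for *Sfrp2*, chr3:132085042-132085291 for *Dkk2* and chr10:121033754-121033959 for *Wif1*, all on the plus strand, and the last is 206 bases long, ending before the first annotated exon. Capitals mark matches, on either strand, to a GC box (GGGCGG) or a TATA box (TATAAA).
Sfrp2: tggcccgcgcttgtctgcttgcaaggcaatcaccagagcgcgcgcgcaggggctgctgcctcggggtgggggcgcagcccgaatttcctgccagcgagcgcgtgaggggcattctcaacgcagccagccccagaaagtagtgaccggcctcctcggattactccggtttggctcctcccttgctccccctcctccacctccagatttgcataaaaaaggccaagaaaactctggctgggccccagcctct
Dkk2: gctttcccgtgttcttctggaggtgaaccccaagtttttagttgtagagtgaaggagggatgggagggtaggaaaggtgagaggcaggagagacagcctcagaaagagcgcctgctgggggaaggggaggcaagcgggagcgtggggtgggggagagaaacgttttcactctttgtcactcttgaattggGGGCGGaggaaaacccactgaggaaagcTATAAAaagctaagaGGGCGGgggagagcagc
Wif1: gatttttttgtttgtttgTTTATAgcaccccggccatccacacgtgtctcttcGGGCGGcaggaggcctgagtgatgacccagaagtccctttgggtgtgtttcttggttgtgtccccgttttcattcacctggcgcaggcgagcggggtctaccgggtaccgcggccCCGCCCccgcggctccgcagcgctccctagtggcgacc
The window of *Dkk2* held 2 GC boxes and 1 TATA box, that of *Wif1* 2 GC boxes and 1 TATA box on the opposite strand, and that of *Sfrp2* neither. Over 32851 mouse promoter windows of 250 bases, 32.7% held a GC box and 12.4% a TATA box. The core recognised by the TCF and LEF factors that act with beta-catenin (CTTTGAT, in 3.21% of all windows) and an AP-1 site (TGANTCA, in 6.75%) were also searched, and neither was found in the 3 windows printed. Among the windows not printed, a window of *Wnt5b* held 1 AP-1 site and another window of *Wnt5b* held 1 TCF and LEF core. These are matches of letters only, and no binding was measured.

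Against unoperated tissue, the inhibitors moved in opposite directions (a gene was called where edgeR's Benjamini-Hochberg adjusted p was below 0.05 and the log2 fold change above 0.5 in either direction). *Sfrp1* and *Sfrp2* were higher in both surgical groups and *Sfrp4* was lower in both. *Wif1* was 19.5-fold lower in SHAM mice. *Dkk2* was called lower and *Dkk3* called higher in Laminectomy mice. In SHAM mice, 4 of the 10 genes were called, 2 higher and 2 lower, where 50.8% of all tested genes were called, 25.7% higher and 25.1% lower. After laminectomy, 8 of the 10 were called, 4 higher and 4 lower, where 48.6% of all tested genes were called, 24.2% higher and 24.4% lower. Without Laminectomy replicate 1 this count was 5 of 10, where 44.6% of all tested genes were called. With the replicate number as a block it was 6 of 10, where 48.4% of all tested genes were called. Over the 10 genes, the median log2 fold change was -0.04 after SHAM surgery and -0.25 after laminectomy, beside medians of 0.00 and 0.01 over all tested genes. The SHAM count was thus below the share of all genes, and a call by itself was common in both comparisons, which share the No operation mice.

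**Figure D1:**
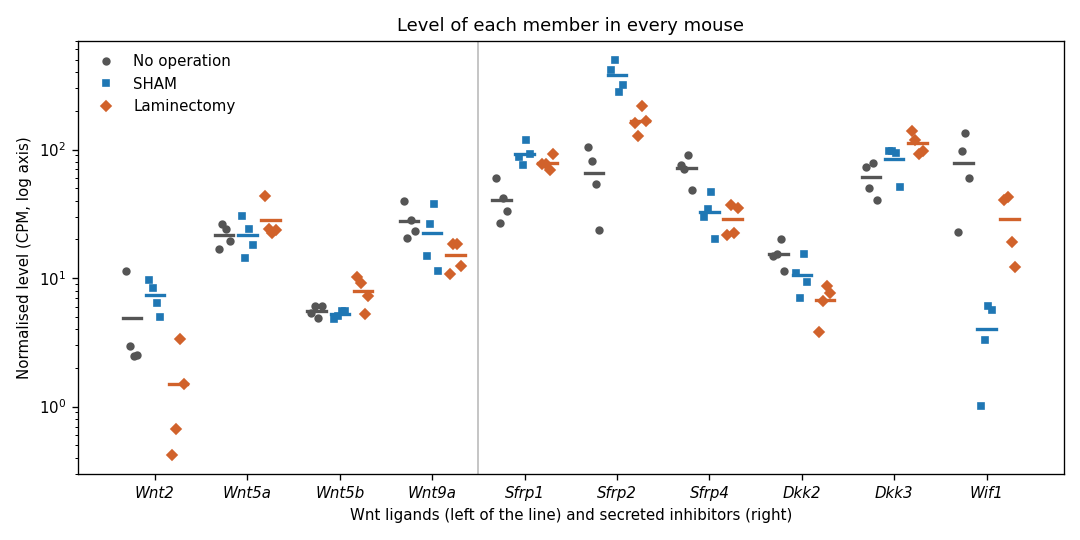
Normalised level of each gene in every mouse (CPM, log axis), with 4 mice per group and the group mean as a bar. *Sfrp2* sits between 281 and 494 CPM in SHAM mice, above all mice of both other groups, and *Wif1* between 1.01 and 6.09 CPM, below all of them.

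*Sfrp2*, which encodes a secreted Frizzled-related protein abundant in connective tissue fibroblasts (identifier 20319, chr3:83766321-83774316 on GRCm38), had the highest level of the 10 after surgery, per length as well as in CPM. It was at 104, 81.4, 54.0 and 23.6 CPM in the No operation group, at 417, 494, 281 and 318 CPM in the SHAM group and at 160, 128, 218 and 166 CPM in the Laminectomy group. No mouse of a group fell within the range of another, so the groups stood in the order No operation, Laminectomy, SHAM. Relative to unoperated tissue, the log2 fold change after SHAM surgery was 2.52 (SE 0.386, adjusted p = 0.000189, edgeR), or 5.75-fold. After laminectomy it was 1.35 (SE 0.372, adjusted p = 0.00836, edgeR), or 2.56-fold. An antisense transcript, Gm26771, shares 347 bases with its exons. The libraries were stranded, but no source states that strand was used in counting, so reads of both cannot be told apart.

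*Sfrp1*, a related inhibitor (identifier 20377, chr8:23411502-23449632), was higher in both surgical groups. Its level was 60.2, 26.9, 42.0 and 33.1 CPM in No operation mice. SHAM mice were at 86.8, 75.2, 118 and 92.0 CPM and Laminectomy mice at 77.7, 76.8, 69.0 and 92.0 CPM. Every operated mouse was above every unoperated mouse, and both surgical groups overlapped. *Sfrp1* rose by 1.20 on the log2 scale in SHAM mice (SE 0.225, adjusted p = 0.000776, edgeR) and by 0.96 in Laminectomy mice (SE 0.224, adjusted p = 0.0033, edgeR).

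*Sfrp4*, the third Frizzled-related gene (identifier 20379, chr13:19623104-19632994), went the other way. It was at 76.1, 70.5, 90.4 and 48.4 CPM in the No operation group, at 29.7, 34.3, 46.3 and 20.3 CPM in the SHAM group and at 21.8, 36.9, 22.2 and 34.8 CPM in the Laminectomy group. The lowest unoperated mouse was just above the highest SHAM mouse, and on library totals without scaling the ranges of these groups overlapped. *Sfrp4* fell by 1.13 on the log2 scale in SHAM mice (SE 0.273, adjusted p = 0.00385, edgeR) and was 2.47-fold lower in Laminectomy mice (SE of the log2 fold change 0.274, adjusted p = 0.00175, edgeR). These 3 genes of a family thus did not move as a unit.

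Macrophage markers and the fibrillar collagen genes of the fibroblast list moved with *Sfrp1* and *Sfrp2*, and the other fibroblast markers did so only in part. The summed level of 9 fibroblast genes was 6504 to 19834 CPM in No operation mice, 40362 to 57651 CPM in SHAM mice and 36448 to 42390 CPM in Laminectomy mice, and of these 9 genes 5 were called higher and 1 lower in SHAM mice and 5 higher and 2 lower in Laminectomy mice. The 5 macrophage genes were called higher in both groups, from a sum of 494 to 1442 CPM without surgery to 3774 to 6956 CPM in SHAM mice and 2874 to 5266 CPM in Laminectomy mice. The fibroblast sum was made up mostly of *Col1a1* and *Col3a1* in the operated mice. Without these collagen genes the other 7 fibroblast genes summed to 3727 to 6450 CPM in No operation mice, 2711 to 4215 CPM in SHAM mice and 1400 to 2758 CPM in Laminectomy mice, so their sum did not rise with *Sfrp2*. Of these 7, 3 were called higher and 1 lower in SHAM mice and 3 higher and 2 lower in Laminectomy mice, and *Dcn*, a matrix proteoglycan gene with the highest level among them, was lower in both (log2 fold change -0.94, adjusted p = 0.0359, and -1.73, adjusted p = 0.00163, edgeR). The part of cell composition in these changes was not tested.

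*Dkk2*, an inhibitor that binds the Lrp6 co-receptor (identifier 56811, chr3:132085292-132180304), was lower in Laminectomy mice. It was at 15.0, 15.4, 20.2 and 11.3 CPM in the No operation group and at 3.81, 6.68, 8.65 and 7.66 CPM in Laminectomy mice. SHAM mice lay between, at 10.9, 7.01, 15.3 and 9.40 CPM, and overlapped both. The Laminectomy and No operation mice did not overlap, but on unscaled library totals they did. Its log2 fold change came to -1.21 (SE 0.291, adjusted p = 0.00404, edgeR) in Laminectomy mice and -0.54 (SE 0.287, adjusted p = 0.123, edgeR) in SHAM mice. Whether the SHAM mice differ from the No operation mice depended on a single mouse, since without SHAM replicate 3 the log2 fold change was -0.76 (adjusted p = 0.0414, edgeR). Muscle fibre and adipocyte markers and some endothelial markers were lower along with *Sfrp4* and *Dkk2*. All 10 muscle fibre genes were called lower in each surgical group, and tendon genes, given below, were lower in part. The 5 adipocyte genes summed to 1146 to 2179 CPM in No operation mice, 249 to 1295 CPM in SHAM mice and 72.5 to 401 CPM in Laminectomy mice, with 3 of 5 called lower in SHAM mice and 5 of 5 in Laminectomy mice. The 5 endothelial genes summed to 666 to 836 CPM, 487 to 672 CPM and 443 to 648 CPM in these groups, with 3 of 5 called lower in each surgical group. The endothelial genes *Pecam1* and *Cdh5* were not called in SHAM mice (log2 fold change -0.04 and -0.14, adjusted p = 0.853 and 0.508, edgeR). The part of these cell types in the levels of *Sfrp4* and *Dkk2* was not tested.

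*Dkk3*, a Dickkopf family member whose own place in Wnt signalling is less settled (identifier 50781, chr7:112116017-112159057), was higher in Laminectomy mice. It was at 73.1, 50.3, 78.6 and 40.7 CPM in the No operation group, at 97.3, 97.1, 93.8 and 51.5 CPM in the SHAM group and at 140, 118, 92.6 and 96.9 CPM in the Laminectomy group. Every Laminectomy mouse was above every No operation mouse, and SHAM mouse 4 sat apart from the other 3. *Dkk3* had a log2 fold change of 0.88 (SE 0.252, adjusted p = 0.0101, edgeR) in Laminectomy mice and 0.49 (SE 0.251, adjusted p = 0.112, edgeR) in SHAM mice. Without SHAM replicate 4 the latter was 0.67 (adjusted p = 0.0257, edgeR).

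*Wif1*, whose product binds Wnt ligands directly and which is known from cartilage and bone surfaces (identifier 24117, chr10:121033960-121100650), had the widest range of the 10 genes, taken as the ratio of the highest to the lowest of the 12 mice. It was at 22.7, 96.8, 135 and 60.1 CPM in the No operation group and at 1.01, 3.32, 6.09 and 5.66 CPM in SHAM mice. Laminectomy mice were at 40.3, 42.9, 19.0 and 12.2 CPM. SHAM mice were thus below every mouse of both other groups, while Laminectomy and No operation mice overlapped through No operation mouse 1. *Wif1* fell by 4.29 on the log2 scale in SHAM mice (SE 0.678, adjusted p = 0.000238, edgeR). In Laminectomy mice the log2 fold change was -1.46 (SE 0.592, adjusted p = 0.0506, edgeR), just short of the threshold, and it ranged from -1.77 without No operation replicate 1 (adjusted p = 0.0163, edgeR) to -0.52 without both No operation libraries rich in bone and neutrophil genes (adjusted p = 0.521, edgeR). It was also called without SHAM replicate 1 (-1.46, adjusted p = 0.0345, edgeR) and without Laminectomy replicate 2 (-1.72, adjusted p = 0.048, edgeR).

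**Figure D2:**
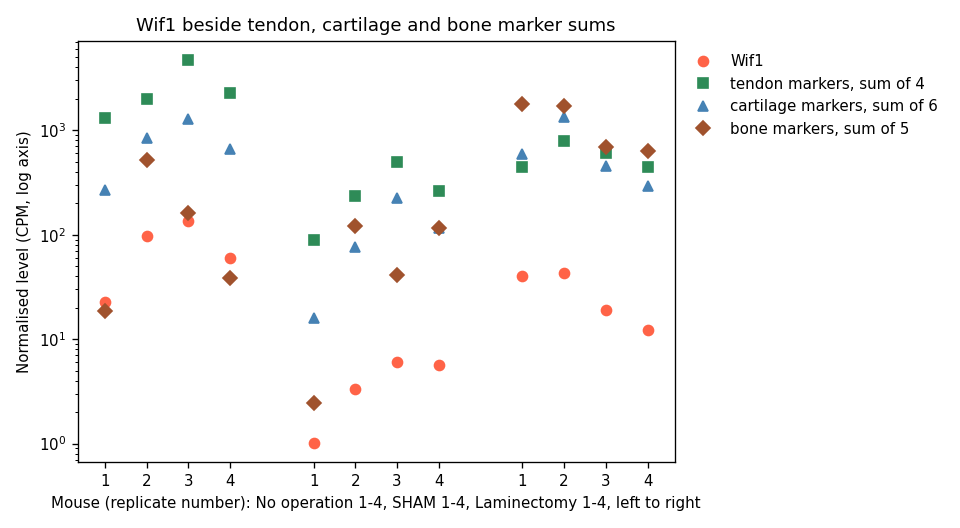
Level of *Wif1* and the summed levels of tendon, cartilage and bone marker genes in each of the 12 mice (CPM, log axis). *Wif1* and the 3 sums are all lowest in SHAM mouse 1, where *Wif1* is at 1.01 CPM.

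Some skeletal connective tissue markers moved with *Wif1* and others did not. The 4 tendon genes summed to 1319 to 4736 CPM in No operation mice, 89.7 to 501 CPM in SHAM mice and 441 to 785 CPM in Laminectomy mice, with 3 of 4 called lower in SHAM mice and 1 of 4 in Laminectomy mice. The 6 cartilage genes summed to 270 to 1286 CPM, 15.8 to 223 CPM and 291 to 1334 CPM in these groups, with 2 called lower and 1 higher in SHAM mice and 1 lower and 2 higher in Laminectomy mice. The 5 bone genes summed to 18.7 to 514 CPM, 2.47 to 121 CPM and 632 to 1791 CPM, with 1 of 5 called lower in SHAM mice and 0 of 5 called in Laminectomy mice. Every Laminectomy mouse was above every No operation mouse in this sum, of which *Ibsp* made up 501 to 1499 CPM in Laminectomy mice. *Bglap*, the osteocalcin gene, was at 0 in No operation mouse 1 and SHAM mouse 1. *Chad*, a cartilage and tendon matrix gene, was at 119, 373, 774 and 434 CPM in the No operation group, at 1.86, 4.60, 15.9 and 8.49 CPM in the SHAM group and at 32.3, 59.1, 29.0 and 13.5 CPM in the Laminectomy group. As for *Wif1*, mouse 1 was lowest and mouse 3 highest within the No operation group and within the SHAM group. Other genes of the cartilage list went the opposite way to *Wif1*. *Sox9*, a transcription factor of cartilage cells, was at 3.26 to 5.16 CPM in No operation mice and was called higher in SHAM mice (6.07 to 16.4 CPM, log2 fold change 1.57, adjusted p = 0.000885, edgeR) and in Laminectomy mice (19.1 to 34.5 CPM, 2.65, adjusted p = 4.18e-05, edgeR). *Acan*, a cartilage proteoglycan gene, was at 1.33 to 34.1 CPM without surgery, was called higher in Laminectomy mice (73.9 to 221 CPM, 3.17, adjusted p = 0.00996, edgeR) and had a log2 fold change of 0.08 in SHAM mice (adjusted p = 0.944, edgeR). The part of tendon, cartilage and bone in the tissue pieces was not tested as a source of these levels.

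Of the ligand genes, none was called in SHAM mice and 3 of 4 were called in Laminectomy mice, each close to the threshold. Over all tested genes, 50.8% and 48.6% were called in these comparisons. *Wnt2*, a ligand of the beta-catenin branch (identifier 22413, chr6:17988940-18030585), was at 11.4, 2.96, 2.46 and 2.52 CPM in the No operation group. SHAM mice were at 9.61, 8.40, 6.41 and 5.02 CPM and Laminectomy mice at 0.424, 0.668, 3.37 and 1.51 CPM. No operation mouse 1 stood far above the other 3, which lay below all SHAM mice and within the range of the Laminectomy mice. SHAM and Laminectomy mice did not overlap. Compared with No operation mice, the log2 fold change was 0.60 (SE 0.628, adjusted p = 0.421, edgeR) in SHAM mice and -1.69 (SE 0.662, adjusted p = 0.0442, edgeR) in Laminectomy mice. Without No operation replicate 1 these became 1.47 (adjusted p = 0.0438, edgeR) and -0.82 (adjusted p = 0.232, edgeR). The Laminectomy call was lost under 11 of 21 alternative settings, among them leaving out any 1 SHAM mouse (-1.69 to -1.68, adjusted p from 0.0525 to 0.0568, edgeR) or Laminectomy replicate 1, 2 or 4. No operation mouse 1 also had the highest *Col3a1*, a fibrillar collagen gene, of its group, at 9680 CPM against 1057 to 2180 CPM.

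*Wnt9a*, known from joint and muscle development (identifier 216795, chr11:59306928-59333552), was at 39.4, 20.7, 28.2 and 23.2 CPM in the No operation group. SHAM mice spread over 14.8, 26.4, 37.7 and 11.4 CPM, and Laminectomy mice were at 10.7, 18.6, 18.3 and 12.4 CPM. The Laminectomy mice were below all No operation mice, though not on unscaled library totals, and the SHAM mice reached into both ranges. For *Wnt9a*, edgeR gave a log2 fold change of -0.89 (SE 0.357, adjusted p = 0.0484) in Laminectomy mice and -0.30 (SE 0.353, adjusted p = 0.472, edgeR) in SHAM mice. The Laminectomy call was lost under 12 of 21 alternative settings, among them leaving out both No operation libraries rich in bone genes (-1.05, adjusted p = 0.0743, edgeR).

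*Wnt5a* and *Wnt5b* encode ligands of the branches that do not run through beta-catenin. *Wnt5b* (identifier 22419, chr6:119432531-119544347) was at 5.31, 6.05, 4.93 and 6.03 CPM in the No operation group, at 4.83, 5.08, 5.51 and 5.55 CPM in the SHAM group and at 10.3, 9.20, 5.28 and 7.25 CPM in the Laminectomy group. The lowest Laminectomy mouse lay within the range of the No operation mice. The log2 fold change was 0.52 (SE 0.197, adjusted p = 0.0387, edgeR) in Laminectomy mice, a call lost under 9 of 21 alternatives (0.51, adjusted p = 0.124, without both No operation libraries rich in bone genes), and -0.09 (SE 0.198, adjusted p = 0.714, edgeR) in SHAM mice. *Wnt5a* (identifier 22418, chr14:28504750-28527448) was at 16.9, 26.5, 24.2 and 19.4 CPM in the No operation group, at 30.6, 14.4, 23.9 and 18.2 CPM in the SHAM group and at 43.6, 24.2, 22.4 and 23.6 CPM in the Laminectomy group. All 3 groups overlapped, and the log2 fold changes of 0.00 (SE 0.271, adjusted p = 0.997, edgeR) in SHAM mice and 0.39 (SE 0.271, adjusted p = 0.238, edgeR) in Laminectomy mice were not called. An antisense transcript, Gm2670, shares 358 bases with the exons of *Wnt5a*.

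In exact two-sided permutation tests on log2 CPM, where 4 mice against 4 allow no p below 0.0286, this smallest p was reached by *Sfrp1*, *Sfrp2*, *Sfrp4* and *Wif1* for SHAM against No operation. For Laminectomy against No operation it was reached by *Wnt9a*, *Sfrp1*, *Sfrp2*, *Sfrp4*, *Dkk2* and *Dkk3*. These were the genes whose mice did not overlap, 4 of 10 and 6 of 10, where 54.5% and 56.0% of all tested genes did not overlap in these comparisons. For *Wnt2*, *Wnt5b* and *Wif1* in Laminectomy mice the permutation p was 0.114.

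**Figure D3:**
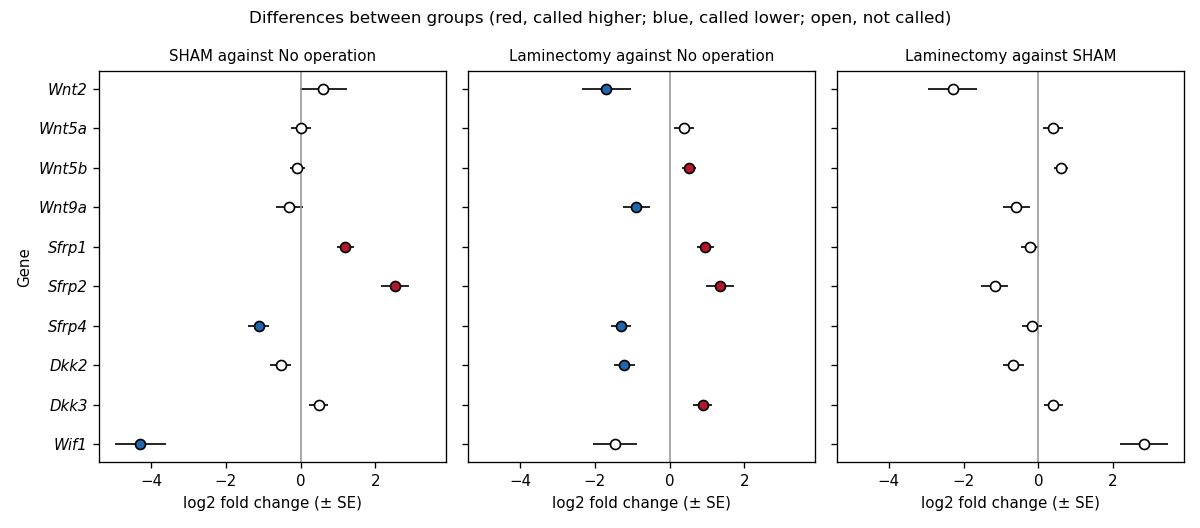
Log2 fold change of each gene (points) with its standard error (bars) in 3 comparisons, with called genes filled. *Wif1* is at -4.29 for SHAM against No operation, and no gene is called for Laminectomy against SHAM.

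Between Laminectomy and SHAM mice, which differ in the excision of bone, edgeR called none of the 10 genes, and 0.0% of all tested genes (0 of 14765), with the smallest adjusted p at 0.0698. At an unadjusted p under 0.05, edgeR gave 5 of the 10 (*Wnt2*, *Wnt5b*, *Sfrp2*, *Dkk2* and *Wif1*) and 2359 of the 14765 genes. DESeq2 called 3 of the 10, *Wnt2*, *Sfrp2* and *Wif1*, and 4.35% of the 15995 genes it tested. The mice of both groups did not overlap for these same 3 genes, where 10.1% of all tested genes did not overlap.

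*Wif1* had a log2 fold change of 2.83 for Laminectomy against SHAM (SE 0.645, adjusted p = 0.111 by edgeR and 0.000481 by DESeq2). *Wnt2* had a log2 fold change of -2.29 (SE 0.667, adjusted p = 0.151 by edgeR and 0.0166 by DESeq2). For *Sfrp2* it was -1.17 (SE 0.369, adjusted p = 0.17 by edgeR and 0.0388 by DESeq2). In exact permutation tests each of the 3 reached p = 0.0286, the smallest that 4 mice against 4 allow. For the other 7 genes the log2 fold change lay between -0.67 (*Dkk2*) and 0.61 (*Wnt5b*), with permutation p from 0.0857 to 0.714. The cartilage and bone sums given above lay higher in every Laminectomy mouse than in every SHAM mouse, the tendon sums overlapped, and their part in the *Wif1* difference was not tested.

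Levels of different genes were compared per length, as CPM per kilobase of annotated exons. In No operation mice the order ran from *Wif1* (32.5 ± 20.0 CPM per kilobase, SD, n = 4) and *Sfrp2* (30.5 ± 16.1) through *Dkk3* (18.1 ± 5.39), *Sfrp4* (17.1 ± 4.17), *Sfrp1* (9.27 ± 3.32) and *Wnt9a* (8.37 ± 2.50) to *Dkk2* (4.17 ± 0.993), *Wnt5a* (2.78 ± 0.561), *Wnt2* (2.15 ± 1.95) and *Wnt5b* (2.10 ± 0.208). Only the step from *Wnt9a* to *Dkk2* separated neighbours whose mice did not overlap. In SHAM mice *Sfrp2* was at 175 ± 44.8 CPM per kilobase, clear of *Dkk3* at 25.3 ± 6.66 and *Sfrp1* at 21.2 ± 4.10, and *Wif1* was last at 1.66 ± 0.967. In Laminectomy mice *Sfrp2* (78.0 ± 17.4), *Dkk3* (33.3 ± 6.54) and *Sfrp1* (18.0 ± 2.19) led, the first 2 steps without overlap, and *Wnt2* was last at 0.662 ± 0.591. The remaining neighbours in these orders overlapped in their mice, except that *Sfrp1* stood above *Sfrp4* in SHAM mice.

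Per length, the 4 ligand genes together were at 12.8 to 21.1 CPM per kilobase in No operation mice, 10.1 to 19.3 in SHAM mice and 10.1 to 12.8 in Laminectomy mice, and these ranges overlapped. The 6 inhibitor genes together were at 70.0 to 141 CPM per kilobase in No operation mice, 194 to 287 in SHAM mice and 140 to 160 in Laminectomy mice. The SHAM mice lay above all others, and the lowest Laminectomy mouse was just under the highest No operation mouse. *Sfrp2* made up 15.6% to 41.8% of this inhibitor sum in No operation mice, 64.3% to 79.9% in SHAM mice and 42.3% to 63.3% in Laminectomy mice. The share of *Wif1* was 8.11% to 39.6%, 0.165% to 1.24% and 3.53% to 12.6% in the same order, and that of *Sfrp4* 14.1% to 16.6%, 2.50% to 5.46% and 3.32% to 6.29%. *Dkk3* held 12.5% to 18.9%, 7.90% to 13.8% and 17.2% to 26.7%. The inhibitor transcripts therefore differed in make-up between the groups, from a mixture without surgery to a make-up with *Sfrp2* as the main part in SHAM mice. These shares follow from the levels above and were not tested.

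**Figure D4:**
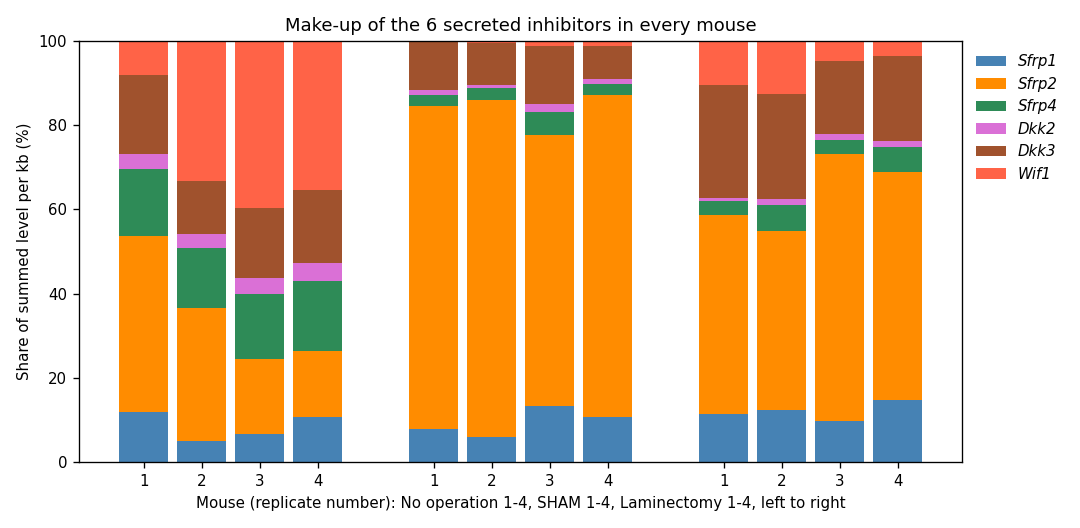
Share of each of the 6 inhibitor genes in their summed level per kilobase (stacked bars, percent), 1 bar per mouse in the 3 groups. *Sfrp2* takes 64.3% to 79.9% in SHAM mice, and *Wif1* takes up to 39.6% in No operation mice.

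The rest of the pathway was read from lists of 87 other genes, of which 75 were tested. In SHAM mice 18 were called higher and 16 lower, with a median log2 fold change of -0.08. In Laminectomy mice 22 were called higher and 15 lower, with a median of 0.14. These were 45.3% and 49.3% of the tested genes, beside the 50.8% and 48.6% called over all genes, which are also the background for each list that follows. For Laminectomy against SHAM edgeR called none, and 16 had an unadjusted p under 0.05, as did 2359 of all 14765 tested genes. DESeq2 called 6, all higher in Laminectomy mice (*Wnt7b*, *Frzb*, *Notum*, *Fzd8*, *Fzd9* and *Rspo2*), and 4.35% of all genes it tested. Values for the genes named next are means ± SD over 4 mice, with adjusted p by edgeR, and values without the bone-rich libraries leave out No operation mice 2 and 3.

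Among the 7 tested genes of other ligands, 1 was called higher and 3 lower in each surgical group. *Wnt4*, a ligand known from muscle and kidney, was at 7.08 ± 0.698 CPM in No operation mice, at 1.28 ± 0.927 CPM in SHAM mice (log2 fold change -2.45, adjusted p = 0.00105) and at 2.63 ± 1.51 CPM in Laminectomy mice (-1.42, adjusted p = 0.0193, and -1.46, adjusted p = 0.0629, without the bone-rich libraries), and the latter call was lost under 4 of 21 alternatives. *Wnt11*, a ligand outside the beta-catenin branch, was at 12.5 ± 3.40 CPM without surgery, with a log2 fold change of -1.07 after SHAM surgery (adjusted p = 0.00769) and -1.27 after laminectomy (adjusted p = 0.00318). *Wnt10b* was lower in SHAM mice (-1.20, adjusted p = 0.00361) and had a log2 fold change of -0.38 in Laminectomy mice (adjusted p = 0.263). *Wnt6* was lower in Laminectomy mice (-1.20, adjusted p = 0.0468, and -1.07, adjusted p = 0.182, without the bone-rich libraries), with -0.66 in SHAM mice (adjusted p = 0.237). The *Wnt6* call was lost under 11 of 21 alternatives, among them a fit with the replicate number as a block and leaving out any 1 No operation mouse or Laminectomy replicate 1, 3 or 4. *Wnt7b*, a ligand known from bone formation, was called higher in Laminectomy mice, at 5.24, 2.16, 1.40 and 1.10 CPM against at most 0.413 CPM in any No operation mouse (3.97, adjusted p = 0.000974), and had a log2 fold change of 1.82 in SHAM mice (adjusted p = 0.0654). *Wls*, the carrier that brings ligands to the cell surface, rose from 96.3 ± 12.7 CPM to 159 ± 12.3 CPM in SHAM mice and 186 ± 15.5 CPM in Laminectomy mice (adjusted p = 0.000198 and 4.57e-05).

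Of the 6 other tested inhibitor genes, none was called higher in either group and 1 was called lower in each. This was *Frzb*, another Frizzled-related gene, in SHAM mice, at 2.27 ± 0.206 CPM against 7.63 ± 2.14 CPM (-1.75, adjusted p = 0.00085). In Laminectomy mice it was *Sfrp5*, at 1.11 ± 1.41 CPM against 9.89 ± 1.20 CPM (-3.15, adjusted p = 0.0202, and -3.24, adjusted p = 0.0528, without the bone-rich libraries), with -1.47 in SHAM mice (adjusted p = 0.198). *Frzb* was at 7.84, 16.2, 5.80 and 6.99 CPM in Laminectomy mice, above all 4 SHAM mice, as *Wif1* was.

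All 10 Frizzled genes were tested, and they divided. In SHAM mice 3 were called higher and 3 lower, and in Laminectomy mice 5 higher and 3 lower. *Fzd4* was at 137 ± 14.1 CPM without surgery, 25.7 ± 8.56 CPM in SHAM mice and 18.7 ± 7.34 CPM in Laminectomy mice (-2.41, adjusted p = 6.96e-05, and -2.87, adjusted p = 3.59e-05). *Fzd7*, a receptor of satellite cells, was lower by 1.34 and 1.50 and *Fzd9* by 3.25 and 1.70 on the log2 scale in these groups. *Fzd2* rose from 18.4 ± 5.03 CPM to 55.8 ± 8.56 CPM and 46.7 ± 3.21 CPM (adjusted p = 2.46e-05 and 8.79e-05), and *Fzd1* was higher in both (1.07, adjusted p = 0.00016, and 0.83, adjusted p = 0.000953). *Fzd3* was also higher in both (log2 fold change 0.81, adjusted p = 0.0137, in SHAM mice and 2.46-fold, adjusted p = 0.000911, in Laminectomy mice). *Fzd5* was called higher in Laminectomy mice (1.09, adjusted p = 0.000657) and had a log2 fold change of 0.47 in SHAM mice (adjusted p = 0.0525).

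Of 7 co-receptor genes tested, 2 were called higher in each group and none lower. These were *Ptk7* and *Ror2*, both of receptors used by the branches that do not need beta-catenin. *Ptk7* was at 9.77 ± 2.63 CPM without surgery, 60.6 ± 10.6 CPM in SHAM mice (adjusted p = 8.34e-06) and 82.2 ± 20.8 CPM in Laminectomy mice (adjusted p = 6.26e-06). *Ror2*, a receptor for Wnt5a, was at 5.73 ± 4.14 CPM, 24.3 ± 3.09 CPM and 22.8 ± 2.50 CPM in these groups (adjusted p = 0.000441 and 0.000664), while *Wnt5a* itself was not called in either. *Vangl1* and *Vangl2*, of the planar polarity list, were also higher in both groups, by 0.59 and 1.00 in SHAM mice and 0.74 and 1.22 in Laminectomy mice on the log2 scale, whereas *Celsr2* was lower in both (-2.12 and -2.16). Without the bone-rich libraries *Celsr2* was at -1.97 and -2.02 and no longer called (adjusted p = 0.0721 and 0.0679). That list had 3 genes called higher and 2 lower of 10 in each group. *Celsr3* was higher in both (1.72 and 1.37), and its Laminectomy value was 0.97 (adjusted p = 0.231) without both libraries holding neuron and glia transcripts. That Laminectomy call was lost under 8 of 21 alternatives, among them leaving out No operation replicate 1, 3 or 4 or Laminectomy replicate 1, 2 or 3. *Daam2* was lower in SHAM mice (-0.99, and -0.69, adjusted p = 0.061, without the bone-rich libraries), with -0.35 in Laminectomy mice (adjusted p = 0.255). *Daam1* was called lower in Laminectomy mice (-0.54) and was below the fold required in SHAM mice (-0.49) and, without the bone-rich libraries, in Laminectomy mice (-0.42), where 3 of 21 alternatives ended the call.

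R-spondins are secreted proteins that strengthen Wnt signals through Lgr receptors. Of 8 genes of this system, 4 were called higher and 3 lower in SHAM mice, and 4 higher and 2 lower in Laminectomy mice. *Rspo2* was at 0.787 ± 0.196 CPM without surgery, 3.83 ± 2.44 CPM in SHAM mice (2.27, adjusted p = 0.00126) and 12.1 ± 2.30 CPM in Laminectomy mice (3.93, adjusted p = 5.09e-05). *Rspo3* was higher in both (1.35 and 1.00), *Lgr4* was lower in both (-1.04 in each), and *Rspo1* was lower in both (-1.63, adjusted p = 0.00705, and -1.68, adjusted p = 0.00617). *Znrf3* was called lower in SHAM mice (-0.53, and -0.47, below the fold required, without the bone-rich libraries, with the call lost under 4 of 21 alternatives), with -0.27 in Laminectomy mice (adjusted p = 0.109). *Lgr5*, a receptor and known target gene, was higher in Laminectomy mice (2.04, adjusted p = 0.0136) and in SHAM mice (1.55, adjusted p = 0.0439), a SHAM call that was lost under 12 of 21 alternatives. Without the bone-rich libraries *Lgr5* was not called in either group (1.64, adjusted p = 0.107, after laminectomy and 1.16, adjusted p = 0.237, after SHAM surgery), nor was it without both Laminectomy libraries holding neuron and glia transcripts (1.52, adjusted p = 0.11, and 1.55, adjusted p = 0.0591).

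Of the 13 tested target and feedback genes of beta-catenin, 4 were called higher and 3 lower in SHAM mice and 6 higher and 2 lower in Laminectomy mice. *Axin2*, a feedback inhibitor often read as a measure of the pathway, was at 19.2, 18.1, 17.9 and 12.4 CPM in the No operation group, at 4.61, 9.79, 9.90 and 4.75 CPM in the SHAM group and at 4.55, 10.7, 7.72 and 8.81 CPM in the Laminectomy group. Every operated mouse was below every unoperated mouse (log2 fold change -1.22, SE 0.317, adjusted p = 0.00595 in SHAM mice and -1.09, SE 0.316, adjusted p = 0.0113 in Laminectomy mice). Without both No operation libraries rich in bone genes the Laminectomy value was -0.97 (adjusted p = 0.0702), and on unscaled library totals it was -0.76 (adjusted p = 0.0643). *Ccn4* and *Myc*, also known as targets, were higher. *Ccn4* was at 27.6 ± 14.1 CPM, 109 ± 12.7 CPM and 143 ± 24.2 CPM in the 3 groups (1.98, adjusted p = 0.000696, and 2.37, adjusted p = 0.000259), and *Myc* had a log2 fold change of 0.95 in SHAM mice (adjusted p = 0.00144) and 1.04 in Laminectomy mice (adjusted p = 0.000868). *Apcdd1* was lower in both groups (-1.48, adjusted p = 0.0059, and -1.52, adjusted p = 0.00537), and without the bone-rich libraries it was called in neither (-1.07, adjusted p = 0.0761, and -1.11, adjusted p = 0.0679). *Lef1* and *Nkd1* were not called in either group, with log2 fold changes of -1.36 and -0.69 in SHAM mice and -0.14 and -0.36 in Laminectomy mice. In SHAM mice *Nkd1* was close to the threshold (adjusted p = 0.051) and was called lower under 4 of 21 alternatives, namely by DESeq2 (-0.68, adjusted p = 0.0397), with the replicate number as a block (-0.77, adjusted p = 0.0305), without SHAM replicate 3 (-0.99, adjusted p = 0.0065) and without Laminectomy replicate 4 (-0.69, adjusted p = 0.0478). Without the bone-rich libraries the *Lef1* values were 0.98 (adjusted p = 0.23) and 2.20 (adjusted p = 0.0182). The targets did not move in a single direction.

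In the beta-catenin core of 18 genes, 2 were called higher and 2 lower in SHAM mice and 3 higher and 2 lower in Laminectomy mice. *Ctnnb1*, which encodes beta-catenin, was at 491 ± 20.9 CPM, 553 ± 44.7 CPM and 623 ± 29.8 CPM, with log2 fold changes of 0.17 (adjusted p = 0.154) and 0.34 (adjusted p = 0.0109), the latter below the fold required. On unscaled library totals the Laminectomy value was 0.66 (adjusted p = 0.000169) and passed. *Bcl9* and *Pygo2*, partners of beta-catenin in the nucleus, were higher in both groups (0.67 and 0.65 in SHAM mice, 0.84 and 0.70 in Laminectomy mice), and *Dvl1* and *Pygo1* lower (-0.96 in each in SHAM mice, -0.91 and -0.78 in Laminectomy mice). On unscaled library totals *Pygo1* was at -0.45 in Laminectomy mice, below the fold required. *Tcf7*, a transcription factor also made by lymphocytes, was higher in Laminectomy mice (1.80, adjusted p = 0.00436), with a log2 fold change of 0.56 in SHAM mice (adjusted p = 0.281).

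**Figure D5:**
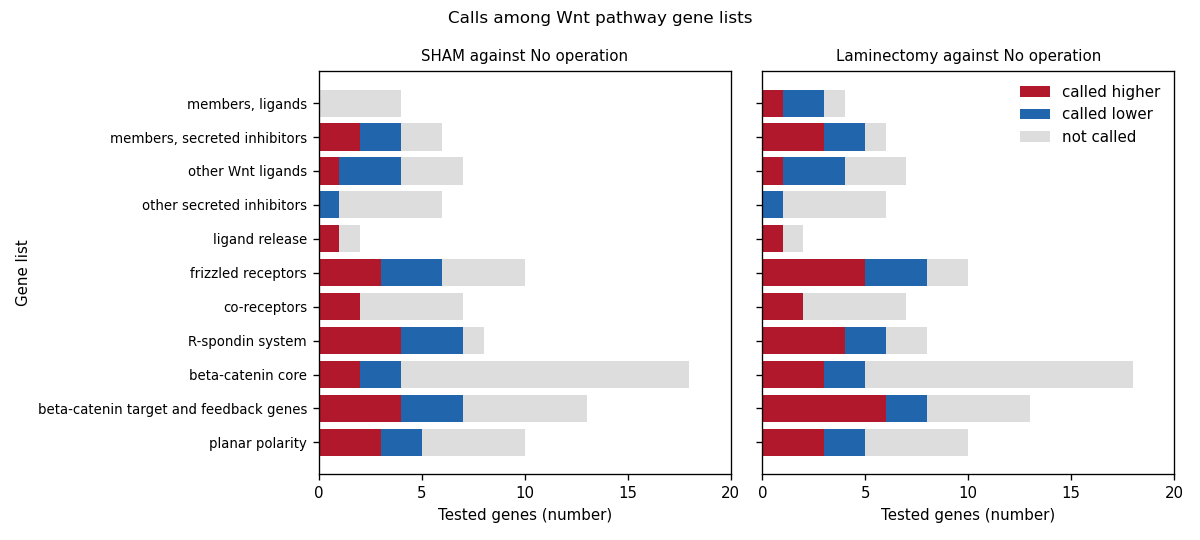
Number of tested genes called higher, called lower or not called in each list of Wnt pathway genes, for SHAM (left) and Laminectomy (right) against No operation. The 18 genes of the beta-catenin core were mostly not called, and the 10 Frizzled genes split into 3 higher and 3 lower in SHAM mice and 5 higher and 3 lower in Laminectomy mice.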

How the data were processed

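Per the labels and the study's methods, poly(A) RNA was sequenced as stranded paired-end libraries, aligned with STAR 2.6.1b to GRCm38, counted with featureCounts 2.0.1 at default settings and tested with DESeq2 1.30.1. The authors deposited unnormalised estimated counts for 18996 genes, of which 10.22% of values (5 of 120 here) were not whole, and these were rounded to whole numbers, changing none by more than 0.5. A step that makes fractional counts is not given in the sources used here. Low counts were removed with edgeR's filterByExpr (4231 genes), library sizes were scaled by TMM (factors 0.849 to 1.134), and edgeR's quasi-likelihood model (4.0.16, R 4.3.3) was fitted to all 12 mice together, with Benjamini-Hochberg adjustment over 14765 genes. DESeq2 1.42.0 was an alternative. The SE is the log2 fold change divided by the square root of F. Permutation tests used log2 CPM with a prior count of 2 (scipy 1.17.1). Exon lengths came from GENCODE on GRCm38. The longest stretch that exons of any 2 of the 10 genes share is 47 bases. Sequencing depth covers counting error only. The labels do not say how animals were housed or operated together, so p-values measure the spread between these mice.

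The genes, the pathway lists and the marker lists were chosen with earlier results of these data known. Other pathway genes were named by rule: up to 3 largest increases and 3 largest decreases per list and comparison among called genes whose higher group averaged at least 1 CPM and whose mice did not overlap, and always *Axin2*, *Lgr5*, *Lef1*, *Nkd1* and *Ctnnb1*. A gene named in one comparison is given with its value in the other. Marker genes, *Col3a1* and the genes listed for DESeq2 were named after their values were seen. The test was checked on simulated counts. Alternatives changed the tool, the scaling, the filter, the mice fitted, the fold required and the replicate block, left out each mouse in turn and, chosen after seeing the data, used unscaled library totals and left out libraries rich in bone or nerve transcripts.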

Additional observations from a re-analysis of the deposited data

Results flagged for a closer look

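In 30 sets of 4 mice (10 genes in 3 groups), 3 held a value whose gap to its nearest neighbour exceeded Dixon's critical share of the range of the set, which chance alone does in about 1 of 20 such sets. *Wnt2* was at 11.4 CPM in the highest No operation mouse, with a gap of 0.945 of the range. *Wnt5a* was at 43.6 CPM in the highest Laminectomy mouse, with a gap of 0.918. *Dkk3* was at 51.5 CPM in the lowest SHAM mouse, with a gap of 0.924.

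For *Wnt2*, all 4 SHAM mice lay above and all 4 Laminectomy mice below the mean log2 CPM of the No operation mice. Laminectomy against SHAM had a log2 fold change of -2.29 for this gene, which edgeR did not call. Since both groups are set against the same unoperated mice, that direct comparison is the only test of the difference between them.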

How the results depend on the processing

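Over 30 pairs of gene and comparison with 21 alternatives each, 16 changed neither call nor sign, and none of the 12 called pairs turned its direction. *Sfrp1*, *Sfrp2* and *Sfrp4* in both surgical groups, *Wif1* in SHAM mice and *Dkk2* and *Dkk3* in Laminectomy mice were called under all 21. The fold required is not among these 21. The cause of the changes below was not tested.

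In Laminectomy against No operation, 8 of the 10 genes were called, and 4 where an absolute log2 fold change above 1 was required. The share called over all tested genes went from 48.6% to 29.3%. The higher fold ended the calls of *Wnt5b*, *Wnt9a*, *Sfrp1* and *Dkk3*. When each mouse was left out, the count ranged from 5 to 8, with 5 without Laminectomy replicate 1. The share over all genes then ranged from 43.8% to 49.7%. In that comparison, *Wnt2* was not called with only the compared groups fitted (-1.68), with the replicate block (-1.53) or on unscaled totals (-1.34), and ranged from -2.47 to -0.82 without each mouse. *Wnt5b* was not called without the count filter (0.52), with only the compared groups (0.53), with the replicate block (0.50) or without both No operation libraries rich in bone genes (0.51), and ranged from 0.38 to 0.68 without each mouse. *Wnt9a* was not called with DESeq2 size factors (-0.88), without the filter (-0.89), on unscaled totals (-0.56) or without both those libraries (-1.05), and ranged from -1.01 to -0.68. *Wif1* was called by DESeq2 (-1.45), with a range of -1.77 to -1.07 without each mouse. On unscaled totals *Wnt5a* (0.69) was called there, and *Dkk3* (0.74) in SHAM mice.

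In SHAM against No operation the count ranged from 4 to 5 when each mouse was left out, beside 46.7% to 51.3% of all tested genes. *Wnt2* ranged from 0.38 to 1.47, *Dkk2* from -0.76 to -0.38 and *Dkk3* from 0.34 to 0.67. *Wnt5a* changed sign with the replicate block (-0.0648) and ranged from -0.20 to 0.16 without each mouse, and *Wnt5b* changed sign on unscaled totals (0.17). For Laminectomy against SHAM, DESeq2 called 3 of the 10 genes (*Wnt2* -2.29, *Sfrp2* -1.16, *Wif1* 2.84), 6 other pathway genes and 4.35% of all genes it tested. There edgeR called 0 under every setting run, and *Sfrp4* ranged from -0.35 to 0.0401 without each mouse. *Lef1* changed sign in SHAM mice without both No operation libraries rich in bone genes (0.98). In Laminectomy mice it changed sign with the replicate block (0.24), on unscaled totals (0.12) and without those libraries (2.20, there called), and ranged from -0.51 to 0.99.

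The replicate numbers were not taken to pair the mice. Deviations of same-numbered mice from their group means correlated from -0.228 to 0.195 for SHAM against No operation, from 0.0686 to 0.352 for Laminectomy against No operation and from -0.131 to 0.333 for Laminectomy against SHAM, and 3, 5 and 2 of 8 mice correlated best with their own number. With the replicate block, 4, 6 and 0 of the 10 genes and 36, 35 and 0 other pathway genes were called in SHAM against No operation, Laminectomy against No operation and Laminectomy against SHAM. In the same order, 50.4%, 48.4% and 0.0% of all tested genes were called. Unscaled totals moved the median log2 fold change of all genes to 0.25 in SHAM and 0.33 in Laminectomy mice.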
